A study of Danio rerio with 26 samples.

Results

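The genes described here are the zebrafish counterparts of genes that cause inherited Parkinson disease in people, together with the synucleins, in brains of male fish exposed to rotenone, a plant compound that blocks complex I of the mitochondrial respiratory chain. They were chosen by symbol from a list of 10 (pink1, prkn, park7, lrrk2, sncb, sncga, sncgb, vps35, fbxo7 and uchl1). Of the 32105 genes in the count tables, 7 carried one of these symbols. An 8th row carries the symbol SNCG (ENSDARG00000034423), without the letter that separates sncga from sncgb, so it is one of these copies and which one was not told apart. The identifiers of park7 and of the other gamma-synuclein copy were absent from the count tables, so these genes were not analysed. All 8 genes passed the filter on low counts and entered every test.

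PINK1 is a kinase that gathers on the surface of damaged mitochondria, where it activates the ubiquitin ligase Parkin, the product of prkn, and marks the organelle for removal by autophagy (mitophagy). Synucleins are small proteins of presynaptic endings that bind vesicle membranes. Alpha-synuclein, the main protein of Lewy bodies, has no gene of its own in zebrafish, where beta-synuclein (sncb) and the gamma-synucleins make up the family. LRRK2 is a kinase of Rab proteins, VPS35 is the core of the retromer that returns cargo from endosomes, FBXO7 is the substrate receptor of an SCF ubiquitin ligase and acts with PINK1 and Parkin, and UCHL1 is a neuronal ubiquitin hydrolase. Rotenone is used in animals to model Parkinson disease.

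The 26 libraries, all of male brains and all labelled with rotenone, formed 3 groups. The first held 7 libraries of fish aged 3 years at 37.5 nM, of the strain AB JxTu Tg(flk:mCherry), which by its name carries the red reporter mCherry under flk, an endothelial gene. The second held 9 libraries of fish aged 1 year at 37.5 nM, and the third 10 libraries of fish aged 1 year at 3.75 nM, both of the strain AB JxTu. There was no untreated group, so no level below can be set against brains without rotenone. Age cannot be told apart from the transgenic line, and concentration cannot be told apart from the count table, since the 3.75 nM libraries stand in a table of their own. The title of each sample carries its own fish number, and the labels do not mention pooling. The p-values measure the spread between these samples.

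Library totals lay between 20.6 and 36.0 in units of 1e+06 counts. Every library had the RNA of neurons, with a summed level of 14 neuron markers between 8148 and 9315 counts per 1e+06 (CPM) in the 3 year group, between 8513 and 9688 CPM in the 1 year group at 37.5 nM, and between 8093 and 9757 CPM in the group at 3.75 nM. In 11 libraries the mean log2 level of muscle, pituitary, skin or photoreceptor markers was more than 1.5 above the median of all libraries (2 of the 3 year group, 5 of the 1 year group at 37.5 nM and 4 of the group at 3.75 nM), and results were also computed without them. The fish numbers in the titles form a lower and a higher run, each with libraries of all 3 groups. What sets the runs apart is not stated in the labels, and means within each run are given beside many of the results. Whether a fold change differed between the runs was tested across all genes, and this is the difference between runs tested below. None of the 8 genes passed, with adjusted p between 0.631 and 0.931 for age and between 0.636 and 0.970 for concentration (edgeR). Nor did any other gene, with 19887 tested for age and 19691 for concentration, so this result does not set the 8 genes apart. Differences in level between the runs were not tested.

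**Figure D1:**
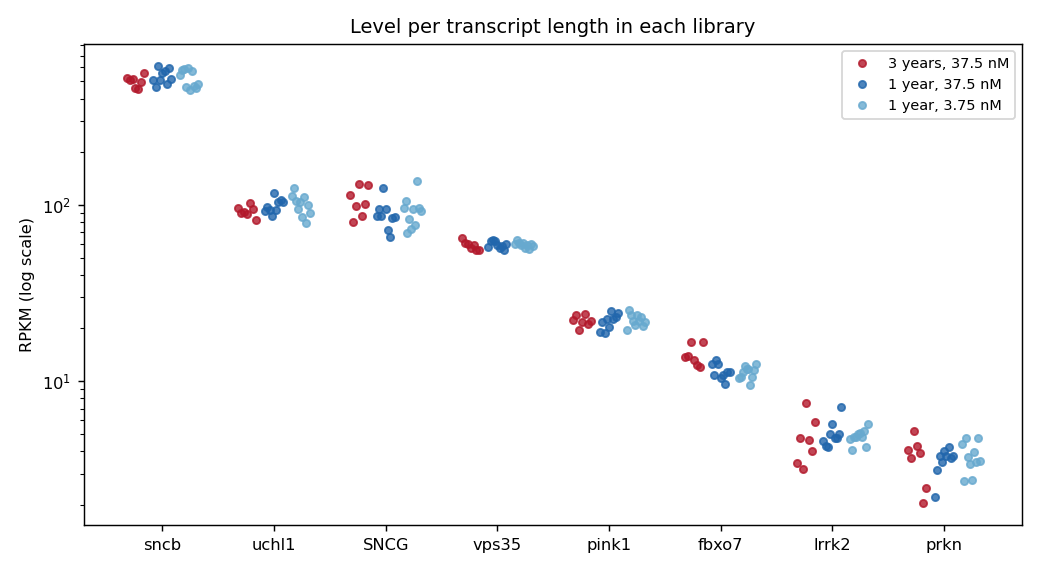
Reads per kilobase of transcript and 1e+06 counts (RPKM, log axis) of the 8 genes in each of 26 libraries, coloured by group. Each point is 1 library, and sncb stands above the other genes in every library, with lrrk2 and prkn lowest.

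Per length of transcript, beta-synuclein was by far the most abundant of the 8 genes, and the gene for Parkin the least. Over the 26 libraries, sncb averaged 522 ± 51.9 RPKM (SD), a level above that of 99.7% of the 17978 genes ranked. The hydrolase gene uchl1 averaged 97.7 ± 10.8 RPKM and SNCG 94.5 ± 19.2 RPKM, and these neighbours in the order did not differ beyond their spread, with uchl1 the higher of them in 17 of 26 libraries. The retromer gene vps35 followed with 59.3 ± 2.57 RPKM, pink1 with 22.1 ± 1.802 RPKM and fbxo7 with 12.05 ± 1.79 RPKM, each in this order in 26 of 26 libraries. At the bottom, lrrk2 averaged 4.91 ± 0.95 RPKM and prkn 3.67 ± 0.77 RPKM. Their order held in 23 of 26 libraries, and 36.0% of the ranked genes lay below prkn. The plot of RPKM by gene shows these steps, which span more than the spread between fish except at uchl1 and SNCG and at lrrk2 and prkn.

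**Figure D2:**
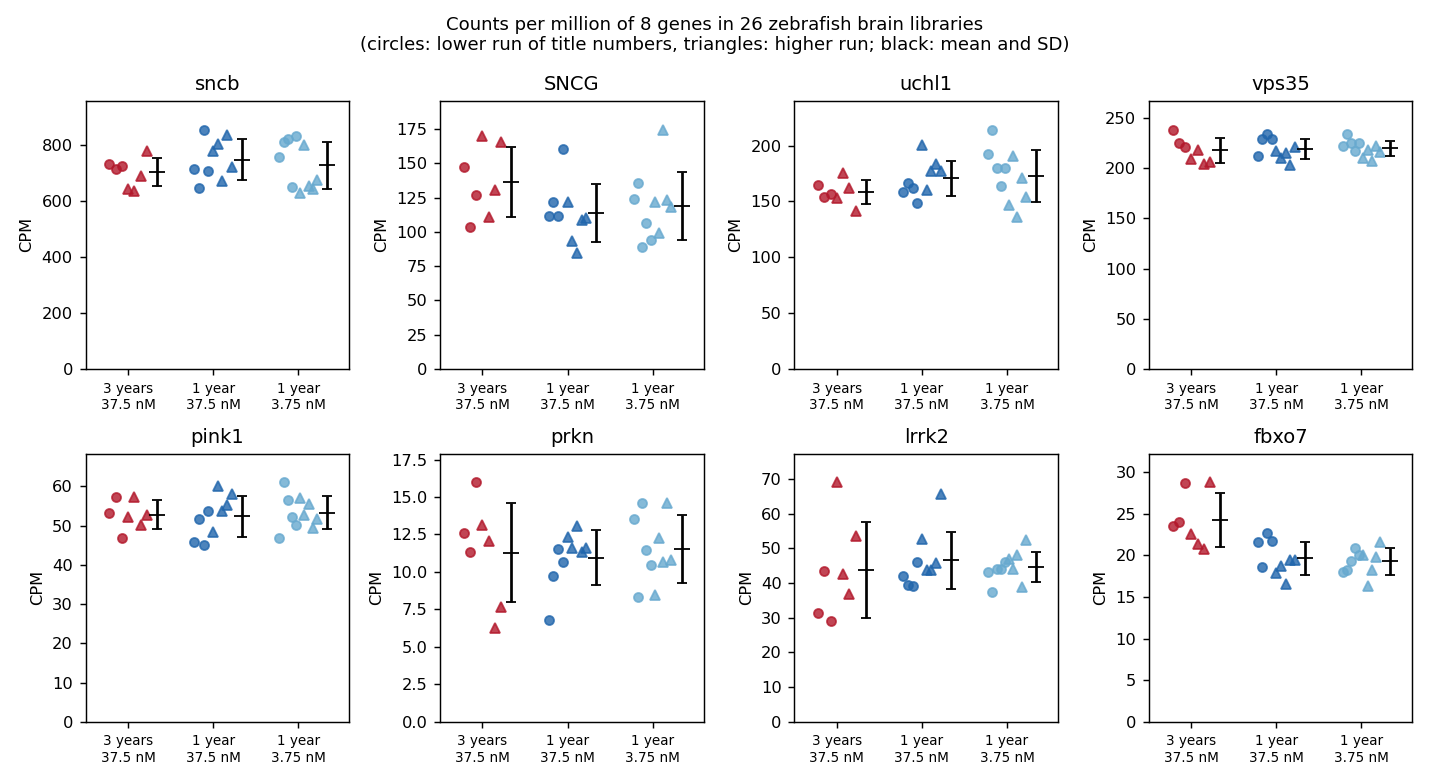
CPM of each gene (linear axes from 0) by group, with the mean and SD in black; circles are libraries of the lower title-number run and triangles those of the higher run. Points of the groups overlap in every panel, and fbxo7 has all 7 libraries of the 3 year group between 20.8 and 28.8 CPM.

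Of the 8 genes, 1 differed with age. The SCF receptor gene fbxo7 was higher in brains of 3 year than of 1 year fish at the same concentration, and it was the single gene of the 8 past the threshold (adjusted p under 0.05 in the quasi-likelihood test of edgeR). Of all 19887 genes tested, 7.79% were past it (1549 genes, 979 of them higher and 570 lower; with plain library totals in place of the trimmed-mean scaling, 1166 higher and 346 lower), or 4.92% higher and 2.87% lower, so 1 of 8 lies close to this background. Its level in the 3 year group ran from 20.8 CPM over a median of 23.5 to 28.8 CPM, against 16.5 CPM over a median of 19.4 to 22.7 CPM in the 1 year group at 37.5 nM. All 7 libraries of the 3 year group lay above the 1 year median, but the groups overlapped. Of all genes, 0.744% had groups without overlap, and none of the 8 was among them.

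The means of fbxo7 were 24.3 ± 3.26 CPM (SD, n = 7) at 3 years and 19.6 ± 1.99 CPM (n = 9) at 1 year. The log2 fold change was 0.30 (SE 0.08, 95% interval 0.14 to 0.46, adjusted p = 0.0360 with edgeR). The group at 3.75 nM resembled the other 1 year group in its mean of 19.3 ± 1.58 CPM (n = 10, from 16.4 to 21.7 CPM). Set against that group, the 3 year fish gave a log2 fold change of 0.34 (SE 0.08, adjusted p = 0.0137 with edgeR, where 6.68% of genes passed), but this comparison uses the same 7 libraries and differs in concentration and table as well.

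The difference in fbxo7 had the same direction within both runs of title numbers. In the lower run, 3 year fish averaged 25.4 CPM against 21.1 CPM in 1 year fish, a log2 fold change of 0.26 (adjusted p = 0.380 with edgeR). In the higher run, they averaged 23.4 CPM against 18.4 CPM, a log2 fold change of 0.33 (adjusted p = 0.0914 with edgeR), so neither run alone passed. The call was also lost without the libraries of high tissue marker levels (log2 fold change 0.25, adjusted p = 0.260, with 5 libraries against 4). It was lost in 9 of 16 fits that each left out 1 library, with adjusted p up to 0.0860. These were the fits without replicates 2, 3 or 7 of the 3 year group and without replicates 2, 5, 6, 7, 8 or 9 of the 1 year group, where replicate numbers are only names. The fold change stayed between 0.25 and 0.33 in these 16 fits.

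Markers of immune cells moved in the same comparison. Of 14 microglia markers tested, 6 rose and none fell. At 3 years the sum of all 14 ran from 626 to 988 CPM (median 731). At 1 year and 37.5 nM it ran from 512 to 810 CPM (median 643). At 3.75 nM it ran from 593 to 948 CPM (median 755), so the sum did not separate the 3 year group. Its largest part was apoeb, with means of 429 CPM at 3 years, 389 CPM at 1 year and 37.5 nM, and 480 CPM at 3.75 nM. All 6 T cell markers tested rose, with sums between 8.52 and 28.8 CPM in the 3 year group, against 4.12 to 11.3 CPM in the 1 year group, and their lowest member at 1 year, cd8a, averaged 1.83 CPM at 3 years and 0.196 CPM at 1 year. Of 11 dopaminergic markers 2 passed the test as lower, pitx3 and 1 of the OTP genes. The level of pitx3 was low, at 1.78 CPM at 3 years and 2.93 CPM at 1 year and 37.5 nM. The other 9, with th, slc6a3, slc18a2 and ddc among them, did not pass. All 11 had a negative fold change, with a list median of -0.28 on the log2 scale. Of 14 neuron markers 2 fell, STMN2 (ENSDARG00000070537) and map2, and 4 had a positive fold change (list median -0.07). The other STMN2 gene, ENSDARG00000033234, averaged 601 CPM at 3 years and 602 CPM at 1 year and 37.5 nM. Of 11 endothelial markers 2 fell, tek and CLDN5 (ENSDARG00000043716), with a list median of -0.27 on the log2 scale, and of 3 pituitary markers tested 1 fell, prl2. Of 6 noradrenergic and cholinergic markers none passed, and 5 had a positive fold change (list median 0.24 on the log2 scale). The part of these shifts in the values of fbxo7 was not tested. In whole brains, fewer cells of a type and less RNA per cell cannot be told apart. Across 26 libraries, after the group means were subtracted, the correlations of fbxo7 with the 13 marker levels ran from -0.30 for red blood cells to 0.32 for noradrenergic and cholinergic neurons, with 0.30 for microglia and 0.16 for T cells. They are weak and are given as a description.

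**Figure D3:**
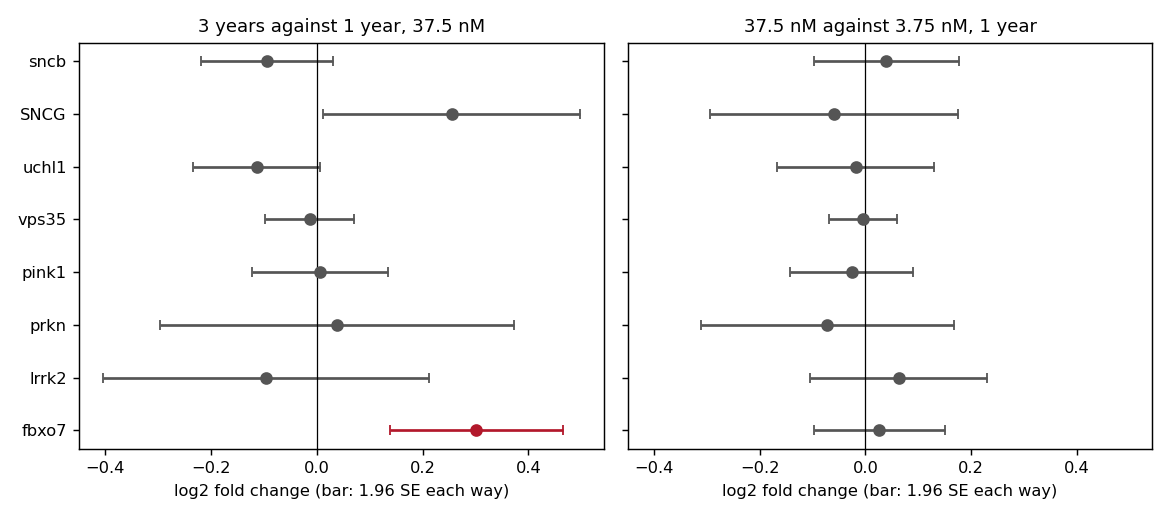
Log2 fold change of each gene with its 95% interval, on the left for 3 years against 1 year at 37.5 nM and on the right for 37.5 nM against 3.75 nM at 1 year. The interval of fbxo7 (red) runs from 0.14 to 0.46 on the left, the one gene called, and all 8 intervals on the right include 0. On the left that of SNCG, 0.01 to 0.50, also excludes 0, but SNCG did not pass the test.

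Neither gene of the mitophagy signal passed a test between the groups. The kinase gene pink1 ran from 46.9 CPM over a median of 52.6 to 57.2 CPM in the 3 year group, against 44.9 CPM over 53.7 to 60.1 CPM in the 1 year group at 37.5 nM. The group at 3.75 nM ran from 46.9 CPM over 52.5 to 61.0 CPM, so all groups covered nearly the same range. With age, the log2 fold change of pink1 was 0.01 (SE 0.07, 95% interval -0.12 to 0.13, adjusted p = 0.968 with edgeR), and with concentration it was -0.03 (SE 0.06, interval -0.14 to 0.09, adjusted p = 0.918).

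The ligase gene prkn, at counts between 157 and 427 per library, was far more variable. It ran from 6.27 CPM over a median of 12.1 to 15.98 CPM at 3 years, from 6.76 CPM over 11.5 to 13.1 CPM at 1 year and 37.5 nM, and from 8.33 CPM over 11.1 to 14.6 CPM at 3.75 nM. The lowest and the highest of all 26 values were both in the 3 year group. With age the log2 fold change was 0.04 (SE 0.17, 95% interval -0.30 to 0.37, adjusted p = 0.916 with edgeR), a wide interval that also holds the fold change of fbxo7. The runs of title numbers went opposite ways. In the lower run prkn averaged 13.3 CPM at 3 years and 9.67 CPM at 1 year, and in the higher run 9.78 CPM at 3 years and 11.99 CPM at 1 year. The difference between the runs was -0.77 on the log2 scale and failed the correction over all genes (p = 0.0232, adjusted p = 0.631 with edgeR). With concentration, the fold change of prkn was -0.07 (SE 0.12, adjusted p = 0.881). The ratio of pink1 to prkn CPM averaged 5.11 ± 1.75 at 3 years, 4.90 ± 0.894 at 1 year and 37.5 nM, and 4.84 ± 1.30 at 3.75 nM.

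Beta-synuclein passed no test between the groups. The CPM of sncb ran from 636 over a median of 715 to 778 at 3 years, against 646 over 721 to 855 at 1 year and 37.5 nM, and 628 over 716 to 834 at 3.75 nM. The 3 year range lay inside that of the 3.75 nM group. Its log2 fold change was -0.10 with age (SE 0.06, 95% interval -0.22 to 0.03, adjusted p = 0.365 with edgeR) and 0.04 with concentration (SE 0.07, adjusted p = 0.887). With concentration the runs went opposite ways. The means of sncb were 730.5 CPM at 37.5 nM and 774 CPM at 3.75 nM in the lower run, and 762 CPM at 37.5 nM and 680.0 CPM at 3.75 nM in the higher run. This difference between runs, tested after the values were seen, was 0.25 on the log2 scale (p = 0.0705, adjusted p = 0.700 with edgeR).

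Gamma-synuclein was the member with the next largest fold change with age after fbxo7, but it did not pass. SNCG ran from 103 CPM over a median of 130.4 to 170.2 CPM in the 3 year group, against 84.7 CPM over 112 to 161 CPM in the 1 year group at 37.5 nM. In 5 of 7 libraries of the 3 year group it lay above the 1 year median. The means were 136 ± 25.8 CPM (n = 7) at 3 years and 114 ± 21.3 CPM (n = 9) at 1 year. The log2 fold change was 0.25 (SE 0.12, 95% interval 0.01 to 0.50, p = 0.0559, adjusted p = 0.208 with edgeR). Within the lower run the means were 126 CPM at 3 years and 127 CPM at 1 year, and within the higher run 144 CPM and 104 CPM, so the difference lay in the higher run. The test of that difference between runs did not pass (log2 0.47, p = 0.0650, adjusted p = 0.667 with edgeR). At 3.75 nM the gene ran from 88.8 CPM over 120.0 to 175 CPM, a range that covers that of the 3 year group, and its pooled log2 fold change with concentration was -0.06 (SE 0.12, adjusted p = 0.903). That value joins opposite directions in the runs. SNCG in the lower run averaged 127 CPM at 37.5 nM and 109.8 CPM at 3.75 nM, and in the higher run 104 CPM at 37.5 nM and 127 CPM at 3.75 nM. This difference between runs, tested after the values were seen, was -0.50 on the log2 scale and failed the correction (p = 0.0385, adjusted p = 0.666 with edgeR).

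The share of SNCG in the summed RPKM of SNCG and sncb, with the other gamma-synuclein copy left out, averaged 17.3% ± 2.74 at 3 years, 14.2% ± 2.71 at 1 year and 37.5 nM, and 15.2% ± 3.56 at 3.75 nM. These shares were not tested, and their ranges overlapped, from 13.5% to 22.3% at 3 years, from 11.2% to 19.7% at 1 year and 37.5 nM, and from 10.5% to 22.4% at 3.75 nM.

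The Rab kinase gene lrrk2 varied widely within groups and passed no test between them. It ran from 29.1 CPM over a median of 42.6 to 69.1 CPM at 3 years, against 39.1 CPM over 43.9 to 65.8 CPM at 1 year and 37.5 nM, and 37.6 CPM over 44.1 to 52.5 CPM at 3.75 nM. The 3 year group held both the lowest and the highest library of all, as for prkn. For lrrk2 it was -0.10 on the log2 scale with age (SE 0.16, 95% interval -0.40 to 0.21, adjusted p = 0.739 with edgeR) and 0.06 with concentration (SE 0.09, adjusted p = 0.847). Its mean was higher in the higher run of title numbers in every group. The lower run averaged 34.7 CPM at 3 years, 41.7 CPM at 1 year and 37.5 nM, and 43.0 CPM at 3.75 nM. In the higher run it averaged 50.5 CPM at 3 years, 50.4 CPM at 1 year and 37.5 nM, and 46.1 CPM at 3.75 nM, and this difference between runs was not tested.

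The retromer gene vps35 was the steadiest of the 8. It ran from 205 CPM over a median of 218 to 239 CPM at 3 years, against 204 CPM over 217 to 234 CPM at 1 year and 37.5 nM, and 207 CPM over 220.2 to 234 CPM at 3.75 nM. The log2 fold change was -0.01 with age (SE 0.04, 95% interval -0.10 to 0.07, adjusted p = 0.874 with edgeR) and -0.01 with concentration (SE 0.03, interval -0.07 to 0.06, adjusted p = 0.974), the narrowest intervals of the 8 genes in both comparisons. The mean of vps35 was lower in the higher run of title numbers in every group. In the 1 year groups, single libraries of the runs overlapped. Means of vps35 in the lower run were 228 CPM at 3 years, 226 CPM at 1 year and 37.5 nM, and 225 CPM at 3.75 nM. In the higher run they were 209.7 CPM, 214 CPM and 215 CPM in the same groups, and this difference between runs was not tested. After the group means were subtracted, correlations of vps35 with the marker levels ran from -0.57 for T cells to 0.25 for pituitary over 26 libraries. Red blood cells had -0.56 and oligodendrocytes -0.45, given as a description with no test.

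The hydrolase gene uchl1 ran from 141 CPM over a median of 156 to 175 CPM at 3 years, against 148 CPM over 167 to 201 CPM at 1 year and 37.5 nM, and 136 CPM over 175 to 214 CPM at 3.75 nM. Only 1 of 7 libraries of the 3 year group lay above the 1 year median. The log2 fold change with age was -0.11 (SE 0.06, 95% interval -0.23 to 0.01, adjusted p = 0.252 with edgeR), which did not pass. In the lower run the means were 158 CPM at 3 years and 159 CPM at 1 year, and in the higher run 158 CPM at 3 years and 179.9 CPM at 1 year (difference between runs -0.20 on the log2 scale, p = 0.0854, adjusted p = 0.688 with edgeR). With concentration it was -0.02 (SE 0.08, adjusted p = 0.959), but the runs of title numbers went opposite ways. In the lower run uchl1 averaged 159 CPM at 37.5 nM and 186 CPM at 3.75 nM, and in the higher run 179.9 CPM at 37.5 nM and 159.6 CPM at 3.75 nM. The test of this difference between runs, chosen after these values were seen, gave 0.40 on the log2 scale (p = 0.00530, adjusted p = 0.636 with edgeR) and failed the correction over 19691 genes, none of which passed it.

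Between 37.5 nM and 3.75 nM, at the same age and strain, no gene of the 8 passed the test. The background was low as well, with 0.0508% of 19691 genes past the threshold (10 genes, 7 higher and 3 lower at 37.5 nM), 0.0355% had groups without overlap, none of the 8 among them, and 1821 genes had an unadjusted p under 0.05. With DESeq2, 65 genes passed and none of the 8 was among them. The largest fold changes of the 8, in either direction, were -0.07 for prkn and 0.06 for lrrk2 on the log2 scale. For fbxo7, the gene that differed with age, the fold change with concentration was 0.03 (SE 0.06, 95% interval -0.10 to 0.15, adjusted p = 0.923 with edgeR). The 9 libraries of 1 year fish at 37.5 nM enter both comparisons, so these share them. A p that misses the threshold does not show that levels were alike. The 95% intervals were narrowest for vps35, from -0.07 to 0.06 on the log2 scale, and widest for prkn, from -0.31 to 0.17.

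**Figure D4:**
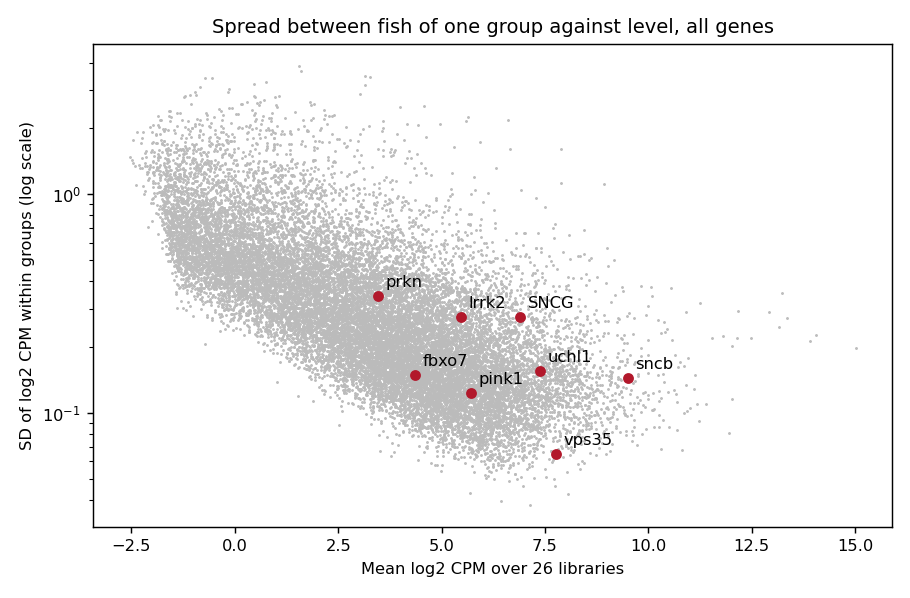
SD of log2 CPM between libraries of one group (log axis) against the mean log2 CPM over 26 libraries; grey points are all genes, red points the 8 genes. At its level, vps35 lies at the lower edge of the cloud, with an SD of 0.06, and SNCG and lrrk2 lie near its upper part, each with an SD of 0.27.

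The 8 genes differed widely in how much they varied between fish of one group. The SD of log2 CPM within groups was 0.06 for vps35, and 2.5% of the 1000 genes nearest to it in level had a smaller SD. For SNCG the SD was 0.27, larger than in 90% of the genes nearest in level, and for lrrk2 it was 0.27, larger than in 84.8%. The SD of prkn was the largest of the 8, at 0.34, and 76.2% of the 1000 genes nearest to it in level had a smaller one. The SD was 0.16 for uchl1 (60.8%), 0.14 for sncb (55.8%), 0.12 for pink1 (32.7%) and 0.15 for fbxo7 (31.3%). The plot of SD against level shows them in the cloud of all genes.

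**Figure D5:**
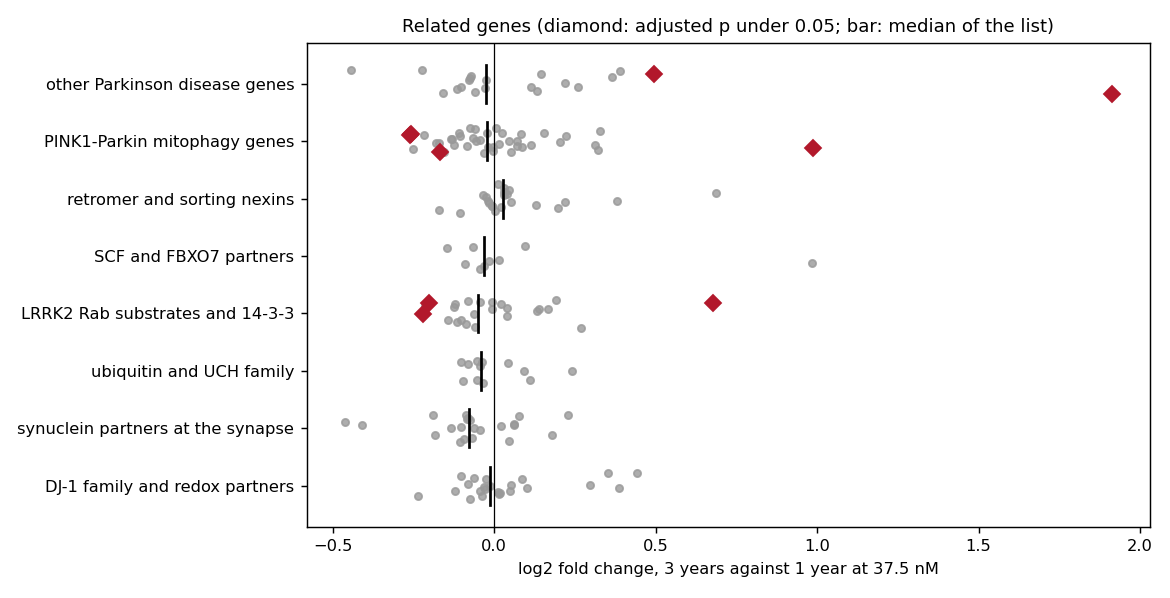
Log2 fold change with age (3 years against 1 year at 37.5 nM) of the genes in 8 lists related to the 8 genes; red diamonds are genes at adjusted p under 0.05 and black bars the medians of the lists. The medians lie near 0, and 9 genes are called, from -0.26 for BNIP3L to 1.91 for GPNMB.

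In lists of genes related to these 8, the share called with age lay close to that of all genes. Over 8 lists, 171 distinct genes were tested and 9 passed, 4 higher and 5 lower, or 5.26% beside 7.79% of all genes. Their median log2 fold change was -0.02 beside 0.01 over all genes tested. With concentration, none of 170 passed with edgeR, and the median was 0.02 beside -0.01 over all genes.

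Among 20 other genes linked to Parkinson disease that were tested, 2 rose with age and none fell. The lysosomal transporter gene ATP13A2 averaged 16.7 ± 2.67 CPM at 3 years and 11.8 ± 2.39 CPM at 1 year (log2 fold change 0.49, SE 0.13, adjusted p = 0.0293 with edgeR), higher than the 1 year median in 7 of 7 libraries. The call was lost without replicates 2, 3 or 4 of the 3 year group or 8 or 9 of the 1 year group (adjusted p up to 0.0729). GPNMB, a membrane glycoprotein of phagocytes and pigment cells, averaged 3.17 ± 3.08 CPM at 3 years and 0.836 ± 0.411 CPM at 1 year (log2 fold change 1.91, SE 0.52, adjusted p = 0.0349), and its 3 year values ran from 0.481 to 9.18 CPM. In the lower run its log2 fold change was 2.94 and in the higher run 0.78. GPNMB did not pass with the run as a covariate (adjusted p = 0.0536) or with limma voom (adjusted p = 0.130). The call was lost without replicates 1, 3 or 4 of the 3 year group or 2, 3, 4, 6, 8 or 9 of the 1 year group (adjusted p up to 0.0945).

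Of 41 mitophagy genes tested, 1 rose and 3 fell. The autophagy receptor gene calcoco2 averaged 10.6 ± 3.50 CPM at 3 years and 5.34 ± 1.34 CPM at 1 year (log2 fold change 0.99, SE 0.20, adjusted p = 0.00646 with edgeR). It was above the 1 year median in 7 of 7 libraries, and it passed in all 16 fits that left out 1 library. It did not pass in the lower run alone, where the log2 fold change was 0.58 (adjusted p = 0.534), or without the libraries of high tissue marker levels, where it was 1.07 (adjusted p = 0.0811), and in the higher run alone it was 1.29 (adjusted p = 0.00635). VDAC3, a channel of the outer mitochondrial membrane and a target of Parkin in mammals, averaged 229 ± 21.8 CPM at 3 years and 273 ± 29.8 CPM at 1 year (log2 fold change -0.26, adjusted p = 0.0367). The mitophagy receptor genes BNIP3L (ENSDARG00000028067; log2 fold change -0.26, adjusted p = 0.0389) and FUNDC1 (-0.17, adjusted p = 0.0453) also fell. These receptors act without PINK1. The other gene matched to the BNIP3L receptor, ENSDARG00000025468, was not among the genes that passed. The remaining 37 did not pass, and the median of the list was -0.02 on the log2 scale.

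Among 24 genes linked to LRRK2, mainly of Rab proteins and of 14-3-3 proteins, which bind phosphorylated LRRK2, 1 rose and 2 fell with age. RAB12, a Rab that LRRK2 phosphorylates in mammals, averaged 2.53 ± 0.601 CPM at 3 years and 1.58 ± 0.395 CPM at 1 year (log2 fold change 0.68, SE 0.18, adjusted p = 0.0319 with edgeR). Both genes that carry the symbol YWHAG, a 14-3-3 protein, fell. They averaged 547 ± 39.9 CPM at 3 years and 628 ± 35.8 CPM at 1 year for ENSDARG00000071658 (log2 fold change -0.20, adjusted p = 0.0229) and 204 ± 15.2 CPM and 237 ± 23.9 CPM for ENSDARG00000067626 (log2 fold change -0.22, adjusted p = 0.0451). How alike these copies are in sequence was not checked. What the counting did with reads that match both is not given, so the value of each copy is uncertain.

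All 5 falls, in VDAC3, BNIP3L, FUNDC1 and both YWHAG genes, lost the call when plain library totals replaced the trimmed-mean scaling (adjusted p between 0.0564 and 0.115). None of the 9 genes called in these lists passed in the lower run alone (adjusted p between 0.210 and 0.547 with edgeR) or without the libraries of high tissue marker levels (between 0.0775 and 0.213), and calcoco2 and ATP13A2 were the ones that passed in the higher run alone. YWHAG (ENSDARG00000067626) also did not pass with limma voom (adjusted p = 0.0725) or with a minimum of 1 CPM (0.0504), and YWHAG (ENSDARG00000071658) with all 26 libraries in the fit (0.0571). Single libraries decided some calls. RAB12 lost its call without replicates 6 or 7 of the 3 year group or 6 or 8 of the 1 year group (adjusted p up to 0.0798), and YWHAG (ENSDARG00000071658) without replicates 4 or 7 of the 3 year group (up to 0.0576). VDAC3 lost it without replicates 2, 3, 4 or 6 of the 3 year group or 2, 3, 4 or 7 of the 1 year group (up to 0.0819), and BNIP3L without replicates 2, 3, 4 or 7 of the 3 year group or 3, 4, 5, 8 or 9 of the 1 year group (up to 0.0872). YWHAG (ENSDARG00000067626) kept it in 5 of 16 fits, those without replicates 5 or 6 of the 3 year group or 1, 2 or 8 of the 1 year group (adjusted p up to 0.0864 in the others). FUNDC1 kept it in 3 of 16, those without replicate 1 of the 3 year group or 1 or 6 of the 1 year group (up to 0.100 in the others).

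None of the other 5 lists held a gene that passed with age. Of 22 retromer and sorting genes, the nearest was IGF2R, a receptor that retromer returns to the Golgi, at 19.3 ± 7.49 CPM at 3 years and 11.9 ± 3.58 CPM at 1 year (log2 fold change 0.69, SE 0.23, adjusted p = 0.0751 with edgeR), and next was SORT1 (ENSDARG00000056252; 0.20, adjusted p = 0.0846). Of the retromer partners of VPS35, VPS26A and VPS29 had near-equal means. VPS26A had 66.0 CPM at 3 years and 66.1 CPM at 1 year, and VPS29 had 62.3 CPM and 62.4 CPM. These partners were named after their values were seen, and the means of the VPS26B genes are not given here. Of 9 SCF and FBXO7 partners, NFE2L1 (ENSDARG00000030616), a factor that controls proteasome genes, had a fold change of 0.98 on the log2 scale (SE 0.30, adjusted p = 0.0506), and SKP1, the adaptor that binds F-box proteins such as FBXO7, had -0.15 (SE 0.05, adjusted p = 0.0832).

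Of 12 genes of the ubiquitin system, with hydrolases related to UCHL1 among them, the nearest to the threshold were UBB (ENSDARG00000002369; log2 fold change 0.24, adjusted p = 0.187 with edgeR) and ubc (0.09, adjusted p = 0.251), which both encode chains of ubiquitin. Of 22 synaptic genes that work beside the synucleins, they were the vesicle gene SYN2 (-0.19, adjusted p = 0.0904) and the SNARE regulator CPLX2 (0.23, adjusted p = 0.125). Of 23 genes of redox defence and related partners of DJ-1, they were gpx1a, a glutathione peroxidase (0.30, adjusted p = 0.168), and the thioredoxin reductase TXNRD2 (0.44, adjusted p = 0.328). The gene of DJ-1 itself, park7, was not among those tested. The synaptic list had the lowest median of the 8, at -0.08 on the log2 scale.

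The genes whose levels went most closely with each of the 8 from library to library, after the group means were subtracted, were ranked by Pearson correlation of log2 CPM over 26 libraries and 16542 genes, as a description. Each library gives all genes the same depth and tissue, which the points share. For vps35 they were ADIPOR1 (r = 0.87) and DNAJA2 (r = 0.86), for uchl1 B3GLCT (0.84) and adcyap1b (0.82), and for sncb NEUROD6 (0.81) and FGF13 (0.80). For prkn they were WDR11 (r = 0.87) and cfap36 (0.81), for lrrk2 MAN1C1 (0.78) and VPS13C (0.76), the last another gene linked to Parkinson disease. For fbxo7 they were FXR1 (r = 0.74) and RIOK2 (0.73), for SNCG PPP1R3C (0.71), and for pink1 spsb3b (0.69) and NDUFA4L2 (0.65). These values were picked as the highest of 16542 genes, so the correlations between the 8 genes themselves cannot be set against them. Over the 28 pairs of the 8 genes, correlations ran from -0.50 for fbxo7 and uchl1 to 0.43 for sncb and uchl1, and pink1 and prkn had -0.05.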

How the data were processed

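RNA of 26 zebrafish brains was sequenced after library preparation with TruSeq RNA v2 reagents, which keep no record of strand, per the labels. In RefSeq's assembly GRCz12tu the gene anxa5b overlaps uchl1. Whether the annotation behind these counts holds this overlap is not known, and reads inside an overlap could not be assigned by strand. The genome build GRCz10 and the tools featureCounts 1.4.6-p4, STAR 2.4.1d and CASAVA 1.8.2 are named in the submitters' processing notes. Which annotation and strand setting were used, and what was done with reads of several matches, is not given in those sources. The authors deposited whole-number counts, not normalized, for 32105 Ensembl genes. A symbol table named 26269 of them (81.8%). In the smallest library a CPM of 1 is 20.6 counts.

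The authors also deposited a score table beside each count table, labelled as RPKM. Over 8235 genes with at least 300 counts, each score equalled the count divided by the gene's length and by a total taken from a list of 50 library totals repeated down the rows, with a median SD of 2.52e-05 log2 units. The lengths recovered from it were used to compute RPKM anew, from each library's own total after the trimmed-mean (TMM) scaling. The scores themselves were not compared.

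Tests used edgeR 4.0.16 in R 4.3.3 (quasi-likelihood F test, robust, TMM factors, filterByExpr, Benjamini-Hochberg adjustment over all genes tested, threshold 0.05), with no covariate. SE is the log2 fold change over the square root of F, and 95% intervals are the normal ones from it. They are narrower than intervals matched to the F test would be. CPM uses TMM library sizes, and log2 CPM a prior count of 2. The age test held 16 libraries and the dose test 19. The procedure was checked on simulated counts. Alternatives used DESeq2 1.42.0, limma 3.58.1 and subsets of libraries. Figures were drawn with matplotlib 3.10.9 in Python 3.11.15.

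The members and the lists of related genes and markers were chosen with earlier results of these data known. Of 333 list symbols, 304 matched, 221 of them directly and the others through a suffix-free symbol or a synonym. Named beyond the members are list genes past the threshold, the pair of smallest p in lists without one, and the pair of genes most correlated with each member, 1 of which is not reported here. Exceptions are said to have been named after their values were seen.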

Additional observations from a re-analysis of the deposited data

Results flagged for a closer look

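The value of SNCG in replicate 4 of the 1 year group at 37.5 nM, 161 CPM, stood apart from the other 8 libraries of its group, the nearest of which had 122 CPM. The gap was 0.507 of the range of the group, above Dixon's critical value of 0.493 for 9 samples. It was 1 flag in 24 groups examined, and chance flags about 1 in 20. In the same library the mean log2 level of skeletal muscle markers was 5.05 and that of pituitary markers 4.597 above the median of all libraries, and its neuron marker level was 0.05 above. Without this library, the age fold change of SNCG was 0.33 on the log2 scale (adjusted p = 0.0792 with edgeR, 7 libraries against 8) in place of 0.25, and its fold change with concentration was -0.14 (adjusted p = 0.756) in place of -0.06.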

How the results depend on the processing

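The number of genes called with age, 1549, was 2901 with DESeq2, 16 within the lower run of title numbers (5 higher and 11 lower), and 135 without the 7 libraries of high tissue marker levels (5 libraries against 4 remained). It ranged from 942 to 2156 over the 16 fits that left out 1 library, the lowest without replicate 4 of the 3 year group, and replicate 7 of that group left out gave 944. The number called with concentration, 10, was 65 with DESeq2, 18 with all 26 libraries in the fit, 24 with the run as a covariate, 0 within the higher run and 0 without the 9 libraries of high tissue marker levels, and it ranged from 2 to 12 over 19 fits without 1 library. It was 2 without replicate 8 of the 1 year group at 37.5 nM, and 6 without its replicates 2, 3, 6 or 9 or without replicates 3 or 4 of the 3.75 nM group. The cause of these shifts was not tested, beyond the smaller number of libraries in subsets. Over 11 alternatives, the age fold change of fbxo7 stayed between 0.25 and 0.35 on the log2 scale with adjusted p from 0.0122 to 0.380, past the threshold in 8. The other 7 genes passed in no alternative, with age or concentration. No paired analysis was possible because replicate numbers were given in accession order and pair no samples. Plain library totals moved the median of all genes with age by 0.05 on the log2 scale. Counts were lowest for prkn, at no more than 427 per library, and the part of depth in its spread was not tested.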

Other observations

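Of the 20 genes most correlated with prkn over 26 libraries, 18 could be placed by symbol in the RefSeq table of assembly GRCz12tu, and 3 of these (16.7%) lie on the chromosome of prkn, where 4.32% of 12532 placed genes lie. They are the genes at ranks 1, 2 and 4, WDR11 (r = 0.87), cfap36 (0.81) and NVL (0.79), with 8, 80 and 60 protein-coding genes between each and prkn. This count was chosen after the values were seen. For pink1, 2 of 16 placed genes (12.5%, beside 3.89% of all placed genes) lie on its chromosome. Among these, AGMAT (r = 0.59) is its direct neighbour. For vps35 it was 1 of 14 (7.14% beside 5.15%) and for fbxo7 1 of 18 (5.56% beside 3.22%). For lrrk2, sncb and uchl1 it was none of 17, 13 and 11, beside 3.1%, 3.89% and 4.43% of all placed genes.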
